A study of Mus musculus with 12 samples.

Results

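Klk1b21, Klk1b27, Klk1b24, Klk1b22, Klk1b26 and Klk1 are 6 genes of the mouse tissue kallikrein family, and they were followed here through 12 testis RNA libraries. All 6 were found by their gene symbols among the 20788 genes of the table, and all 6 passed the filter on low counts, as did 16388 genes in all. The genes were chosen from measured values of these same libraries: Klk1b21 was among the genes with the largest difference between the knockdown libraries and their control, so that contrast is given below as a description. Klk1b26 and Klk1 belong to the family but not to the group of members that varied most.

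The libraries came from the testes of F1 mice, the offspring of males whose own testes had received a lentivirus, and each of the 4 groups held 3 libraries. In the 3NC and 5NC groups the virus was the control of the LV3 or the LV5 backbone. In the lncRNA5251 knockdown group (called knockdown below) it was the LV3 backbone with a mixture of 3 short hairpin RNAs against the long noncoding RNA lncRNA5251. In the lncRNA5251 overexpression group (called overexpression below) it was the LV5 backbone carrying lncRNA5251. Per the study's methods the sires were injected at 4 weeks of age and mated with untreated females at 9 weeks, and their F1 males were sampled at 8 weeks, whereas the series' own design text describes the F1 testes as the transfected tissue. The strain is written IRC in the labels and ICR in the study. Every group thus carried a virus in its lineage, no uninjected group was analysed here, and lncRNA5251 itself was not analysed here. Whether replicate libraries were made from different mice is not stated in the labels, and the p-values below then measure only a spread between libraries that may be technical.

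Tissue kallikreins are secreted serine proteases made as inactive precursors. Klk1, the true tissue kallikrein, cuts kininogen to release kinins, which act on blood vessels and smooth muscle. In the mouse the same locus holds a row of close copies, the Klk1b genes, of which several process growth factors or prorenin in the salivary gland, and Klk1b21, Klk1b24 and Klk1b27 are known as kallikreins of the Leydig cell, the androgen-producing cell between the seminiferous tubules. Klk1b22 is known as an epidermal growth factor binding protein and Klk1b26 as a prorenin-converting enzyme. These are whole-testis libraries, so the cell that made each transcript was not measured, and fewer cells of a type and less RNA per cell cannot be told apart.

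The members are so alike in sequence that this bears on every value. In the GENCODE annotation of the mouse build GRCm38, which is the build mm10 named in the submitters' processing notes, 14 protein-coding genes from Klk1b8 to Klk1 lie on the plus strand of chromosome 7 within 279.0 kb (chr7:43950664-44229618). Each has 5 exons. Klk1b26 lies at chr7:44012168-44016968, Klk1b27 at chr7:44052290-44056712, Klk1b21 at chr7:44102328-44106583, Klk1b22 at chr7:44112673-44116922, Klk1b24 at chr7:44188236-44192455 and Klk1 at chr7:44225360-44229618. The coding sequences of the members are 780 to 792 bases long. Over the 15 pairs of members, coding identity ran from 83.4% to 93.6%, with a median of 86.5%. The closest pairs were Klk1b27 with Klk1b24 (93.6%), Klk1b21 with Klk1b27 (92.6%) and Klk1b21 with Klk1b24 (92.6%).

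A stretch of exon 3 shows how long a run of bases the copies can share. It is the longest run that Klk1b21 shares with Klk1b3, which lies further along the row, 69 bases at coding positions 420 to 488 of both, and it is shown because these are the genes that the deposited table lists with decimal counts whose sum is whole. It is given 5′ to 3′ from the GENCODE transcripts, in lower case, with the bases that differ from Klk1b21 in capitals.
Klk1b21 (chr7:44105702-44105770): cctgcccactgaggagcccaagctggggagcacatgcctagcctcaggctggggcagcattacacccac
Klk1b3 (chr7:44201465-44201533): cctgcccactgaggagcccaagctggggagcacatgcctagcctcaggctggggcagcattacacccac
Klk1b27 (chr7:44055836-44055904): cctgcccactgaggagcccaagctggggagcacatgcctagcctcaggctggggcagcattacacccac
Klk1b24 (chr7:44191575-44191643): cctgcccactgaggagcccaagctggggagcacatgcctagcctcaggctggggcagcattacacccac
Klk1b22 (chr7:44116039-44116107): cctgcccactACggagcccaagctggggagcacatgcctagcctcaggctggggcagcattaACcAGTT
Klk1b26 (chr7:44016089-44016157): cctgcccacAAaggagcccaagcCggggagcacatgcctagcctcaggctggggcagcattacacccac
Klk1 (chr7:44228741-44228809): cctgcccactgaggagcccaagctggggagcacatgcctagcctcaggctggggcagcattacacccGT

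Klk1b21, Klk1b3, Klk1b27 and Klk1b24 were identical over all 69 bases, while Klk1 differed at 2 bases, Klk1b26 at 3 and Klk1b22 at 8. Of all windows of 50 bases in the transcript of Klk1b24, 33.9% were found unchanged in a transcript of another gene, most often Klk1b21. The share was 29.1% for Klk1b21, 28.4% for Klk1, 15.03% for Klk1b26, 14.3% for Klk1b27 and 13.3% for Klk1b22. With up to 2 mismatches allowed against other kallikrein transcripts, the shares were 76.5% for Klk1b24, 72.0% for Klk1b21, 68.7% for Klk1, 60.6% for Klk1b27, 55.5% for Klk1b22 and 45.3% for Klk1b26. Of the 72 member values, 2 were not whole numbers to within 0.001 reads: Klk1b21 was listed at 663.74 reads in 3NC replicate 1 and at 653.7 in 5NC replicate 2. In the same libraries Klk1b3 stood at 104.26 and 106.3 reads, and the sums of both genes were whole to the same tolerance, 768 and 760. The study's alignment settings asked SOAPaligner to report all repeat hits of a read, and the step that turned such hits into counts per gene is not stated, so each member's own level is uncertain to that extent.

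The DNA around the starts of the Klk1b members was partly alike, and that of Klk1 less so. RefSeq promoter windows (build GRCm38.p6, 250 bases before to 50 after the annotated start) matched all 6 members, and identity between pairs of windows ran from 44.5% to 83.1%. It was 44.5% to 59.7% for pairs with Klk1 and 58.6% to 83.1% for pairs of Klk1b members. The windows of the 4 members that varied most are shown as stretches of 80 bases around a TTTAAA that they share, which is in capitals.
Klk1b21 (chr7:44102234-44102313): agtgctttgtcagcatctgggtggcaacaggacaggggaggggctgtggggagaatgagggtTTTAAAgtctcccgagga
Klk1b27 (chr7:44052211-44052290): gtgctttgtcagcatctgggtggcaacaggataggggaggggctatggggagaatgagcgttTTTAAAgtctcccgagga
Klk1b24 (chr7:44188143-44188222): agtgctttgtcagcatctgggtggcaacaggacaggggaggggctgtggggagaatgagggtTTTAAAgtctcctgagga
Klk1b22 (chr7:44112571-44112650): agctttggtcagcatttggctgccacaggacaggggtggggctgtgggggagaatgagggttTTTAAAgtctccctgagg

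The letters TTTAAA, searched for after these sequences had been seen, began 32, 17, 31 and 40 bases before the GENCODE start of Klk1b21, Klk1b27, Klk1b24 and Klk1b22. Counted from the RefSeq start, which is the one the windows are set on, the distances were the same for the last 3, but in Klk1b21 the letters began 4 bases after the start. They stood in 5 of the 6 member windows, Klk1b26 included and Klk1 not, against 13.16% of 32851 mouse promoter windows. Of the other letters searched on both strands, TATAAA, a core promoter element, was in none of the members against 13.62% of all windows, and the cAMP response element TGACGTCA in none against 1.79%. AAGGTCA, the core bound by the steroidogenic factor NR5A1, was in the windows of Klk1b21 and Klk1 against 4.72% of all windows. AGAACA, a motif bound by the androgen receptor as part of its site, was in that of Klk1b24 against 18.97%. A match of letters is a description of the window and does not show that a factor binds there.

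Library totals ran from 12719699 to 15771655 reads with a median of 15273158, and levels are given below as CPM, counts scaled to library size with TMM factors. The 2 libraries 3NC replicate 2 and knockdown replicate 1 stood apart in the leukocyte gene Ptprc, at 94.8 and 71.7 CPM, against at most 6.91 CPM in the other 10. The 18 Leydig cell genes on the list used to check the tissue, such as Star, Cyp17a1 and Insl3, were all tested and none was at 0 throughout.

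The 4 genes Klk1b21, Klk1b27, Klk1b24 and Klk1b22, grouped after their values had been seen, stood at either a high or a low level in the control libraries. Klk1b21 stood at 43.9, 38.3 and 4.73 CPM in 3NC replicates 1 to 3, at 44.0, 46.0 and 43.5 CPM in 5NC, at 3.67, 1.73 and 3.38 CPM in the knockdown, and at 9.47, 16.3 and 20.6 CPM in the overexpression. The control libraries other than 3NC replicate 3 were close together, while that library lay beside the knockdown libraries and the 3 overexpression libraries lay between. The reads behind these levels ran from 26 to 705.

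Klk1b27 had the same order of groups. Its levels were 42.6, 42.1 and 4.12 CPM in 3NC, 50.4, 37.9 and 50.1 CPM in 5NC, 3.48, 1.33 and 2.30 CPM in the knockdown, and 6.12, 13.5 and 23.6 CPM in the overexpression. The 3NC and knockdown groups did not overlap, though 3NC replicate 3 was only 1.18 times the highest knockdown library, and the overexpression lay below 5NC throughout.

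Klk1b24, the closest copy of Klk1b27, stood at 33.4, 32.9 and 1.96 CPM in 3NC, at 34.5, 32.3 and 33.3 CPM in 5NC, at 2.84, 2.19 and 4.05 CPM in the knockdown, and at 9.53, 14.99 and 16.7 CPM in the overexpression. Here 3NC replicate 3 was the lowest of all 12 libraries, so 3NC and the knockdown overlapped. The 5NC libraries varied little, with a CV (the SD as a percentage of the mean) of 3.31%.

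Klk1b22 rested on the fewest reads, with 1, 3 and 7 in the knockdown libraries. Its levels were 5.63, 6.96 and 0.405 CPM in 3NC, 4.49, 9.57 and 5.65 CPM in 5NC, 0.0632, 0.199 and 0.473 CPM in the knockdown, and 2.24, 2.40 and 3.25 CPM in the overexpression. Again 3NC replicate 3, with 6 reads, fell within the range of the knockdown libraries. At so few reads the levels in those 4 libraries carry a large counting error.

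Klk1b26 did not show this split into high and low libraries, though its group means had the same order as those of Klk1b21. It stood at 11.2, 5.84 and 16.5 CPM in 3NC, at 17.2, 10.8 and 13.1 CPM in 5NC, at 7.59, 9.70 and 11.8 CPM in the knockdown, and at 12.2, 11.3 and 9.12 CPM in the overexpression. All 4 groups overlapped, and 3NC replicate 3 was the highest 3NC library.

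Klk1, the kinin-releasing enzyme, stood at 7.74, 4.91 and 4.39 CPM in 3NC, at 5.43, 6.40 and 7.01 CPM in 5NC, at 3.98, 3.26 and 5.00 CPM in the knockdown, and at 3.16, 4.13 and 4.76 CPM in the overexpression. The 3 overexpression libraries lay below the 3 of 5NC, by a small gap.

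**Figure D1:**
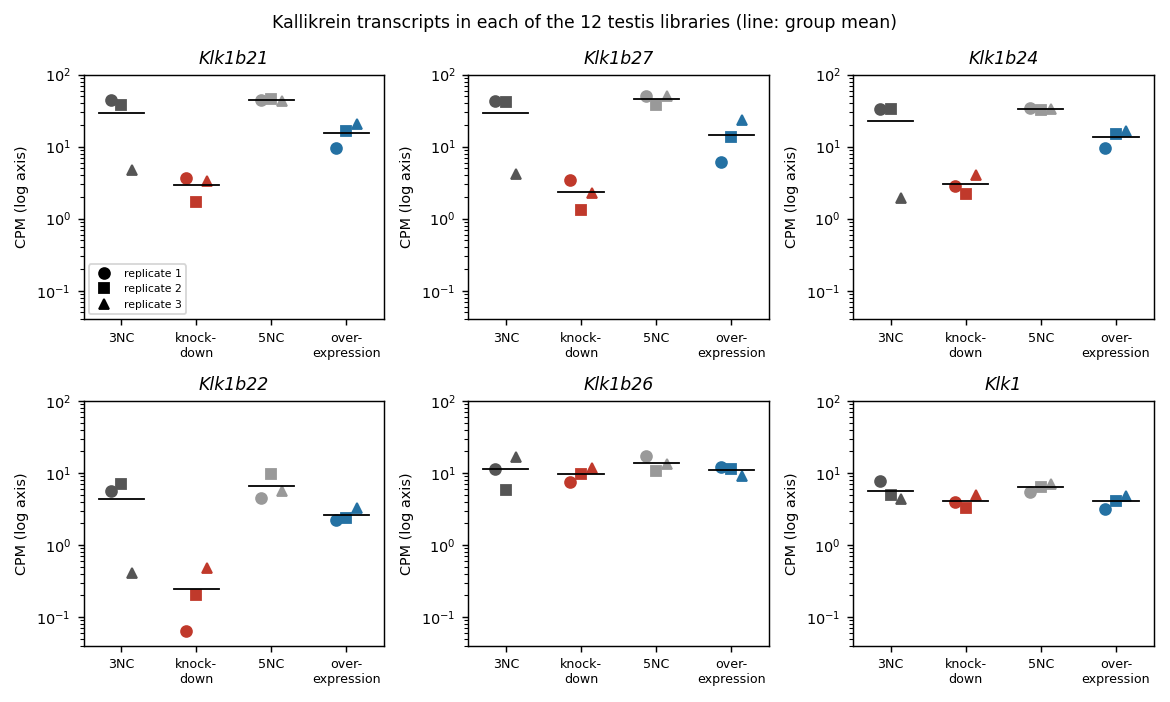
Levels in CPM of the 6 kallikrein genes in each library, 1 panel a gene, with a log axis, 1 marker shape a replicate number and a line at the group mean (n = 3 libraries a group). In the panels of Klk1b21, Klk1b27, Klk1b24 and Klk1b22 the triangle of 3NC replicate 3 sits at the level of the knockdown and the overexpression libraries lie below all 5NC libraries, while Klk1b26 and Klk1 stay within 2.94-fold and 2.45-fold over the 12 libraries.

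To compare one kallikrein with another, the deposited FPKM values, which are scaled by gene length, were used. Over the 12 libraries the mean FPKM was 31.3 ± 27.5 for Klk1b27, 30.3 ± 24.9 for Klk1b21, 25.1 ± 19.7 for Klk1b24, 15.2 ± 4.20 for Klk1b26, 6.24 ± 1.76 for Klk1 and 4.89 ± 4.44 for Klk1b22 (SD, n = 12). Over all 12 libraries the ranges of the first 3 overlapped, as did those of the last 2, but this spread includes the differences between groups. Within 5NC alone, Klk1b24 (45.11 to 47.05 FPKM) lay below Klk1b21 (57.49 to 61.49) and Klk1b27 (51.98 to 68.4). In 5NC the order was Klk1b27 at 62.6 ± 9.22, Klk1b21 at 59.0 ± 2.18, Klk1b24 at 46.2 ± 0.989, Klk1b26 at 18.8 ± 4.20, Klk1b22 at 9.37 ± 3.89 and Klk1 at 7.91 ± 0.927 FPKM (SD, n = 3). In the knockdown the order was turned, with Klk1b26 at 12.8 ± 2.39 and Klk1 at 5.10 ± 1.07 FPKM above Klk1b24 at 4.04 ± 1.21, Klk1b21 at 3.76 ± 1.41, Klk1b27 at 3.13 ± 1.52 and Klk1b22 at 0.333 ± 0.280 FPKM (SD, n = 3). Between the last of these and the others the gap was larger than the spread, while Klk1, Klk1b24, Klk1b21 and Klk1b27 had overlapping ranges.

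The members' variability was set beside that of all tested genes as a description. The SD over the 12 libraries includes the contrast that chose Klk1b21, so a high rank in part restates that choice. The SD of log2 CPM over the 12 libraries was 1.71 for Klk1b21, 1.90 for Klk1b27, 1.64 for Klk1b24 and 1.90 for Klk1b22, against a median of 0.23 over all 16388 genes, and between 98.8% and 99.4% of genes had a smaller SD. For Klk1b26 and Klk1 the SDs were 0.43 and 0.39, larger than those of 81.9% and 78.8% of genes. Within groups alone the SDs of the 4 were 0.98 to 1.19, against a median of 0.21, and without 3NC replicate 3 they were 0.43 for Klk1b21, 0.64 for Klk1b27, 0.32 for Klk1b24 and 0.55 for Klk1b22, against a median of 0.20.

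Across the 12 libraries, the log2 CPM of Klk1b21 had a Pearson r of 0.99 with Klk1b27, 0.97 with Klk1b24 and 0.95 with Klk1b22. It had an r of 0.73 with Klk1 and of 0.04 with Klk1b26. With the group means removed, the same correlations were 0.97, 0.97, 0.84, 0.68 and -0.65. Without 3NC replicate 3 the values were 0.99, 0.99, 0.95, 0.74 and 0.19 before, and 0.92, 0.86, 0.13, 0.73 and -0.18 after, the group means were removed, so that within groups the relation of Klk1b21 to Klk1b22 and to Klk1b26 rested largely on that library. These are descriptions of points that share their library and may share reads of close copies.

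The 6 members together made up 144.5, 131.1 and 32.1 CPM in 3NC, 156.0, 143.0 and 152.7 CPM in 5NC, 21.6, 18.4 and 27.0 CPM in the knockdown, and 42.7, 62.5 and 78.1 CPM in the overexpression. Summing them does not change which libraries are high or low. Klk1b21, Klk1b27, Klk1b24 and Klk1b22 held 85.5% to 88.0% of the members' reads in 5NC, 64.1% to 82.2% in the overexpression and 29.6% to 46.5% in the knockdown. In 3NC they held 86.9% in replicate 1, 91.8% in replicate 2 and 34.9% in replicate 3. The pair Klk1b26 and Klk1 had a summed level of 10.8 to 22.6 CPM over all 12 libraries.

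The overexpression lineage was compared with the control of its own backbone, overexpression against 5NC. These libraries are not those of the contrast that chose Klk1b21. The 6 members were still chosen with earlier results of these data known, so what follows is no independent check of them. All 6 fitted changes were below 0. Klk1b21 stood at 15.4 ± 5.62 CPM in the overexpression and 44.5 ± 1.33 CPM in 5NC (SD, n = 3), a log2 fold change of -1.53 ± 0.58 (SE), or 2.89-fold lower. Klk1b27 stood at 14.4 ± 8.80 and 46.1 ± 7.12 CPM, a log2 fold change of -1.68 ± 0.68. Klk1b24 stood at 13.7 ± 3.73 and 33.4 ± 1.11 CPM, a log2 fold change of -1.28 ± 0.66.

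Klk1b22 stood at 2.63 ± 0.546 CPM in the overexpression and 6.57 ± 2.66 CPM in 5NC, a log2 fold change of -1.32 ± 0.71. Klk1 stood at 4.02 ± 0.808 and 6.28 ± 0.799 CPM, a log2 fold change of -0.65 ± 0.26, and Klk1b26 at 10.8 ± 1.56 and 13.7 ± 3.24 CPM, a log2 fold change of -0.33 ± 0.32. That of Klk1b26 ran from -0.48 to -0.14 with 1 library left out at a time, the latter without 5NC replicate 1, and was -0.22 without overexpression replicate 3.

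By edgeR's quasi-likelihood test with Benjamini-Hochberg adjustment over all 16388 genes, none of the 6 passed an adjusted p of 0.05, where 0.311% of all genes did. The adjusted p was 0.332 for Klk1b21, 0.36 for Klk1b27, 0.475 for Klk1b24, 0.497 for Klk1b22, 0.755 for Klk1b26 and 0.356 for Klk1. At an unadjusted p under 0.05, 3 of the 6 were lower (Klk1b21, Klk1b27 and Klk1), as were 4.85% of all genes. In 5 of the 6, Klk1b26 being the exception, all 3 overexpression libraries lay below all 3 of 5NC, as was so for 10.0% of all genes. The median of the 6 log2 fold changes was -1.30 and that of all genes -0.01. In a fit of these 6 libraries alone the adjusted p was 0.0344 for Klk1b21 and 0.0297 for Klk1b24, and in a fit without 3NC replicate 3, a library of neither group, it was 0.0391 and 0.0327. These fits called 0.675% and 0.520% of all genes. The second fit is singled out because of the kallikrein level of 3NC replicate 3, so its p-values do not test the members. The first fit leaves that library out as well. The log2 fold changes were -1.53 in each of the 3 fits for Klk1b21 and -1.28 for Klk1b24. These fits tested 15852 and 16730 genes and drew the spread, the scaling and the filter from other sets of libraries, and which of these moved the calls was not tested.

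The knockdown lineage against its own backbone control, knockdown against 3NC, is the contrast that chose the leading member, and its values are given as a description. The fitted log2 fold changes were -3.31 for Klk1b21, -3.64 for Klk1b27, -2.91 for Klk1b24, -4.12 for Klk1b22, -0.20 for Klk1b26 and -0.48 for Klk1. With 1 library left out at a time, Klk1 ran from -0.65 to -0.18, the latter without 3NC replicate 1, and Klk1b26 from -0.52 without 3NC replicate 2 to 0.20 without 3NC replicate 3, with -0.052 without knockdown replicate 1 and -0.37 without knockdown replicate 3. None was called, and neither was any other gene (0.00%) at the adjusted p of 0.05. Klk1b21 and Klk1b27 alone had all knockdown libraries below all 3NC libraries, as did 6.36% of all genes. Without 3NC replicate 3 the log2 fold changes were -3.80 for Klk1b21, -4.14 for Klk1b27, -3.44 for Klk1b24 and -4.64 for Klk1b22, with adjusted p-values of 0.00174, 0.0181, 0.000995 and 0.0181, and that of Klk1b26 was 0.20. These 4 were among 12 genes called in that fit (0.0717%). Each of the 12 libraries was left out in turn, and this fit is singled out because of the kallikrein level of that library, so these p-values do not test the members. The alternative tool DESeq2 gave adjusted p-values of 0.00384 for Klk1b21, 0.00682 for Klk1b27 and 0.00378 for Klk1b22 with all libraries, where it called 16 genes (0.0985%). These p-values belong to the contrast that chose the leading member and do not test the members either.

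The control lineages were set side by side as 5NC against 3NC. The log2 fold changes were 0.62 ± 0.57 for Klk1b21, 0.64 ± 0.65 for Klk1b27, 0.55 ± 0.64 for Klk1b24, 0.60 ± 0.69 for Klk1b22, 0.29 ± 0.32 for Klk1b26 and 0.14 ± 0.25 for Klk1 (SE), and all 6 were smaller than or close to their error. With limma on log2(FPKM + 0.1) the values were 1.17 for Klk1b21, 1.25 for Klk1b27, 1.38 for Klk1b24 and 1.26 for Klk1b22, and none was called. The values also moved with each 3NC library. Without 3NC replicate 3 they were 0.12 for Klk1b21, 0.13 for Klk1b27, 0.02 for Klk1b24, 0.07 for Klk1b22, 0.69 for Klk1b26 and -0.0022 for Klk1. Without 3NC replicate 1 they were 1.06, 1.01, 0.95, 0.84, 0.30 and 0.44 in the same order, and without 3NC replicate 2 they were 0.87, 0.98, 0.91, 1.12, -0.016 and 0.047. Leaving out a 5NC library moved Klk1b22 to 0.21 (replicate 2), Klk1b26 to 0.098 (replicate 1) or 0.44 (replicate 2), and Klk1 to 0.23 (replicate 1) or 0.053 (replicate 3). None was called, against 0.128% of all genes. Both comparisons on 3NC share its libraries, and overexpression against 5NC shares 5NC with this one, so the 3 sets of values are not independent of each other. Whether the knockdown and overexpression lineages differed in their effect was not tested.

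**Figure D2:**
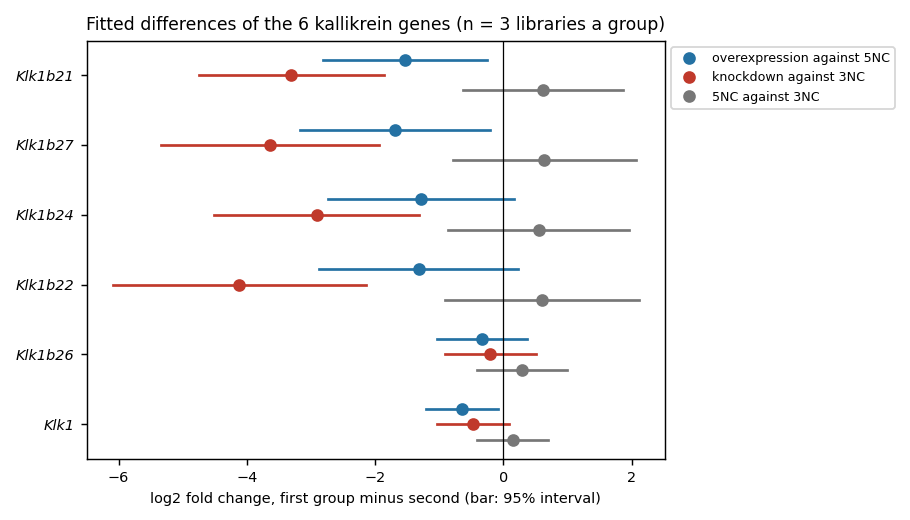
Fitted log2 fold changes of the 6 kallikrein genes in 3 comparisons, each with its 95% interval from edgeR (n = 3 libraries a group), with the first-named group minus the second on the horizontal axis. All 6 points of overexpression against 5NC lie below 0, from -1.68 to -0.33, and those of knockdown against 3NC, the contrast used to choose the leading member, reach -4.12 at Klk1b22 while Klk1b26 and Klk1 stay at -0.20 and -0.48.

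Along the chromosome, the 4 members with the widest range stood next to each other. From the start of Klk1b27 to the end of Klk1b24 (chr7:44052290-44192455, 140.2 kb) the only other protein-coding gene of the row was Klk1b16, which had 8 to 32 reads a library. The highest level over the 12 libraries was 37.9 times the lowest for Klk1b27, 26.6 times for Klk1b21, 151 times for Klk1b22 and 17.6 times for Klk1b24. The lowest level of Klk1b22 was a single read, and without that library, knockdown replicate 1, the ratio was 48.0. Without knockdown replicate 2 it was 21.96 for Klk1b27 and 13.6 for Klk1b21. On either side of this stretch it was 2.94 times for Klk1b26 and 2.11 times for Klk1b3.

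The other kallikrein genes gave a background of close copies. Of 23 family genes on a fixed list, 18 were in the table and 6 were tested, and none was called in any of the 3 comparisons. In overexpression against 5NC all 6 of their log2 fold changes were below 0, with a median of -0.45. The summed level of the 18 was 62.9 to 82.9 CPM in the overexpression, below the 85.7 to 90.3 CPM of 5NC. That of the knockdown (58.0 to 87.7 CPM) overlapped with 3NC (64.5 to 85.8 CPM). By mean FPKM the highest was Klk1b8 at 73.5, above every member, and its range over the 12 libraries was 1.60-fold. Klk1b8 had a log2 fold change of -0.16 ± 0.17 in overexpression against 5NC and of -0.22 ± 0.17 in knockdown against 3NC. Klk1b9 (16.3 FPKM), which binds epidermal growth factor, had values of -0.46 ± 0.22 and 0.34 ± 0.22, and Klk1b3 (8.53 FPKM), the gamma subunit of nerve growth factor, of -0.73 ± 0.20 and -0.14 ± 0.20. Klk1b5 (3.94 FPKM), which shares 95.2% of its coding bases with Klk1, had values of -1.28 ± 0.29 and 0.32 ± 0.28, with an adjusted p of 0.103 in the first by edgeR's quasi-likelihood test.

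**Figure D3:**
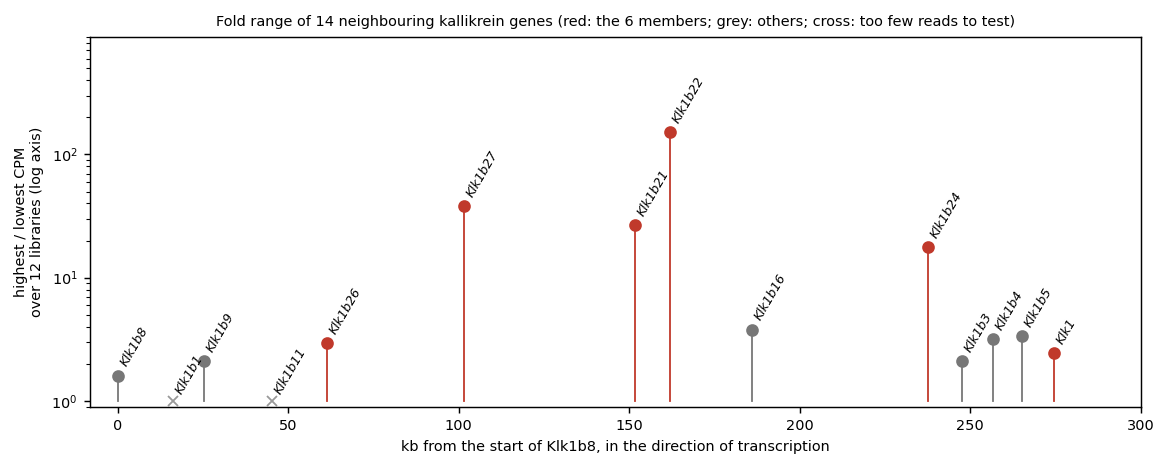
The ratio of the highest to the lowest CPM over the 12 libraries (log axis) of 14 kallikrein genes, plotted at the distance of their starts from that of Klk1b8 in kb, with the 6 members in red, other genes in grey and the 2 genes with too few reads to test as crosses. The red points of Klk1b27, Klk1b21, Klk1b22 and Klk1b24 rise to between 17.6 and 151 (48.0 for Klk1b22 without the library with 1 read), and all other tested genes stay under 4.

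The Leydig cell genes were followed beside the kallikreins. Their 18 summed levels were 1484 to 2729 CPM in 3NC, 1935 to 2624 in 5NC, 1673 to 1999 in the knockdown and 2037 to 2816 in the overexpression, so the overexpression overlapped with 5NC and the knockdown with 3NC, where the summed kallikreins did not. The knockdown and overexpression ranges did not overlap in either sum. The library 3NC replicate 3 was the lowest of the 12, at 1484 CPM. In overexpression against 5NC the median log2 fold change of the list was 0.12 and none of the 18 was called, with 0 lower and 1 higher at an unadjusted p under 0.05 (4.85% and 7.07% of all genes). The 1 higher was Ptgds, a prostaglandin synthase gene, which had the largest change of the list and was named after its values had been seen. Its log2 fold changes were 1.16 ± 0.24 here (edgeR's quasi-likelihood test, adjusted p = 0.0906) and 0.53 ± 0.24 in knockdown against 3NC (SE). In knockdown against 3NC the median was -0.23, none was called, and at an unadjusted p under 0.05, 5 of the 18 were lower and 2 higher, as were 3.08% and 2.56% of all genes.

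Single Leydig cell genes gave values of both kinds. Cyp17a1, which turns progestins into androgens, stood at 591 ± 245 CPM in 3NC, 643 ± 140 in 5NC, 263 ± 69.5 in the knockdown and 589 ± 182 in the overexpression (SD, n = 3), with a log2 fold change of -1.17 ± 0.35 in knockdown against 3NC and of -0.13 ± 0.34 in overexpression against 5NC. For Star, which carries cholesterol into mitochondria, the log2 fold changes were -0.97 ± 0.28 and -0.01 ± 0.28, and for Lhcgr, the receptor of luteinizing hormone, -1.20 ± 0.30 and 0.03 ± 0.29. For Cyp11a1, which makes pregnenolone, they were -0.66 ± 0.41 and -0.04 ± 0.41. For Insl3, the hormone of testis descent, they were 0.25 ± 0.17 and 0.20 ± 0.17, and for Hsd3b1, a steroid dehydrogenase, 0.18 ± 0.16 and 0.15 ± 0.16. For the dehydrogenases Hsd3b6 and Hsd17b3 they were -0.42 ± 0.28 and 0.25 ± 0.28, and -0.11 ± 0.25 and 0.29 ± 0.25.

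**Figure D4:**
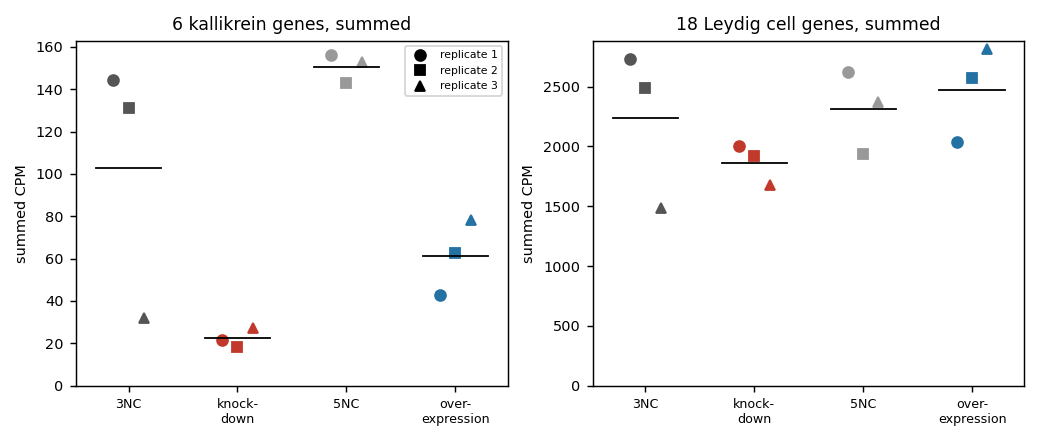
Summed CPM of the 6 kallikrein genes (left) and of 18 Leydig cell genes (right) in each library, with 1 marker shape a replicate number and a line at the group mean (n = 3 libraries a group), both axes starting at 0. The kallikrein sum of the overexpression (42.7 to 78.1) lies below that of 5NC (143.0 to 156.0), while the Leydig sums of these groups overlap (2037 to 2816 and 1935 to 2624).

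Genes of other tissues were compared in the same way. The 12 epididymis genes on the list had summed levels of 39.4 to 85.6 CPM in 3NC, 22.4 to 314 in 5NC, 5.25 to 25.7 in the knockdown and 4.40 to 5.46 in the overexpression. Crisp1, a secreted protein of the epididymis, was most of the mean sum in both control groups, at 40.1 ± 18.8 CPM (SD, n = 3) in 3NC and 116 ± 116 in 5NC. It was at 4.63 ± 7.44 CPM in the knockdown and 0.137 ± 0.059 in the overexpression. In overexpression against 5NC, 6 were tested, all 6 had log2 fold changes below 0 and 1, the protease inhibitor gene Spint3, was called. At an unadjusted p under 0.05, 5 of the 6 were lower, as were 4.85% of all genes, and the median log2 fold change was -5.38. In knockdown against 3NC none was called, 5 of the 6 were lower at an unadjusted p under 0.05, as were 3.08% of all genes, and the median was -2.43. The lipocalin gene Lcn8, a defining marker, was at 0 in all 12 libraries, and the lipocalin gene Lcn5 had at most 2 reads. The epididymis sum was 22.4 CPM in 5NC replicate 1 and 314 CPM in 5NC replicate 2, where the members' sums were 156.0 and 143.0 CPM. It was 39.4 CPM in 3NC replicate 3 and 48.6 CPM in 3NC replicate 1, where the members' sums were 32.1 and 144.5 CPM. The part of Leydig cell or epididymis content in the kallikrein values was not tested. Of the salivary gland list, the organ where most kallikreins are known, 3 of 12 genes were tested, none was called, and the summed level was 24.5 to 54.1 CPM over all groups.

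The remaining cell lists overlapped between the groups compared. The summed macrophage genes ran from 136 to 147 CPM in 5NC and from 145 to 160 CPM in the overexpression, and reached 585 and 775 CPM in single libraries of 3NC and knockdown. The Sertoli cell sum was 851 to 1097 CPM and the peritubular sum 317 to 390 CPM over the 12 libraries. Of the blood list, 2 of 5 tested genes were called higher in overexpression against 5NC, the globin genes Hbb-bs and Hbb-bt, and the same 2 were called lower in 5NC against 3NC. None of the 14 macrophage, 14 Sertoli cell and 8 peritubular genes, all tested, was called in any comparison. Without 3NC replicate 2 and knockdown replicate 1, the libraries with the most Ptprc, no member was called in any comparison.

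The rest of the kallikrein-kinin pathway was described by its own list. Of 25 genes for kininogens, kinin receptors, kininases and inhibitors, 17 were tested and none was called in any comparison, with medians of 0.00 in overexpression against 5NC and 0.01 in knockdown against 3NC. The gene with the highest mean FPKM was Ace, the kinin-degrading enzyme with a germ cell form, at 159 FPKM and log2 fold changes of 0.21 ± 0.16 and 0.09 ± 0.16. Agt, the precursor of angiotensin, stood at 52.6 FPKM with values of 0.47 ± 0.24 and 0.66 ± 0.24. Serpina5, a protease inhibitor that binds kallikreins, stood at 51.2 FPKM with values of 0.36 ± 0.12 and 0.33 ± 0.12, and Serping1, the C1 inhibitor, at 31.6 FPKM with values of 0.29 ± 0.50 and 0.17 ± 0.49.

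The genes whose log2 CPM over the 12 libraries was most like the summed members were sought among 15407 genes with a mean of at least 1 CPM. Sned1 had a Pearson r of 0.93, Mblac1 of 0.93, Itih2 of 0.92, Mmd2 of 0.92 and Fdx1 of 0.92 (n = 12). They moved over a narrower range, 4.22-fold from lowest to highest library for Itih2 and 1.54-fold to 1.91-fold for the others. Itih2 stood at 46.7, 39.1 and 11.1 CPM in 3NC, with the same replicate low, at 35.9, 32.0 and 34.8 CPM in 5NC, at 14.4, 15.6 and 16.7 CPM in the knockdown, and at 17.4, 25.9 and 28.9 CPM in the overexpression. As the highest of 15407 values these correlations were selected, and they are given with no test.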

How the data were processed

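RNA of 12 F1 mouse testis samples was enriched on oligo(dT) beads per the study's methods, although the labels name total RNA, and sequenced on an Illumina HiSeq instrument. The authors mapped reads to genes with SOAPaligner and deposited estimated counts (expected counts per gene, 12719699 to 15771655 a library) and FPKM values (their methods write RPKM), with no pooling. A further 18 columns with values of other samples, and the authors' group means, were not used. Counts were rounded, filtered by filterByExpr (minimum count 10) and scaled by TMM, and all 12 libraries were fitted by group in edgeR 4.0.16 (R 4.3.3), with quasi-likelihood tests and Benjamini-Hochberg adjustment. Chi-square tests between replicates gave at least 3.50 per degree of freedom, so no library was counted as a copy of another. The steps were tested on simulated data. The members and lists were chosen with earlier results of these data known. Beyond the members, named genes are those of highest mean FPKM in the family and kinin lists (up to 4 each), 8 Leydig cell genes, the 5 genes most alike in pattern and up to 2 examples of other lists. Other than by this rule, the called genes of the epididymis and blood lists, Ptprc and the lipocalin genes were named after their values were seen. Alternatives were DESeq2 1.42.0, limma 3.58.1 on log2(FPKM + 0.1), other scalings, no filter, a replicate block and leaving out libraries. Sequences came from GENCODE M21 and RefSeq, to which 20630 of 20788 gene IDs matched, and coding sequences were aligned with Biopython.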

Additional observations from a re-analysis of the deposited data

How the results depend on the processing

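Each member was fitted again under DESeq2, limma on FPKM, RLE size factors, no filter on low counts, the compared libraries only, a replicate block, and without each library. The summed members were recomputed from FPKM, from totals without TMM, without each library of the groups compared, and as 1 row of the fit (an alternative chosen after seeing the data). For overexpression against 5NC all 6 log2 fold changes kept their sign throughout, from -1.78 to -1.27 for Klk1b21 and from -2.22 to -1.31 for Klk1b27, and 0 to 2 members were called. The 2 called members were Klk1b21 and Klk1b24, with the 6 libraries alone (0.675% of all genes called) and without 3NC replicate 3 (0.520%). The latter fit is singled out because of the kallikrein level of that library, so its p-values do not test the members. For knockdown against 3NC no member was called but for 3 with DESeq2, of 16 genes called (0.0985%), and 4 without 3NC replicate 3, of 12 called (0.0717%), in the contrast that chose the leading member, so leaving out 1 library gave 0 to 4. The 6-library fit of that comparison did not test Klk1b22. In 5NC against 3NC 0 members were called throughout. Signs turned in values near 0. With 1 library left out at a time, Klk1b26 ran from -0.016 to 0.694 in 5NC against 3NC and from -0.515 to 0.20 in knockdown against 3NC, and Klk1 from -0.0022 to 0.439 in 5NC against 3NC. Klk1b26 was at -0.014 in 5NC against 3NC without the 2 libraries with the most Ptprc, an alternative chosen after seeing the data. The cause was not tested. The summed members kept their direction in these recomputations. Correlations of same-numbered deviations were 0.19, -0.12 and 0.15 for overexpression and 5NC, -0.52, -0.64 and 0.39 for knockdown and 3NC, and 0.31, 0.18 and -0.01 for 5NC and 3NC. They were not all positive in any comparison, so the replicate numbers were not used to pair the samples in the main fit. With the replicate block 0 members were called in each comparison. Klk1b22 rests on 1 to 7 reads in the knockdown libraries, where counting error is large.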
